A study of Rattus norvegicus with 9 samples.

Results

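The COPII coat packs newly made proteins into vesicles that leave the endoplasmic reticulum (ER) for the Golgi. Its genes were examined here by name: 10 were listed (Sec13, Sec31a, Sec23a, Sec23b, Sec24a, Sec24b, Sec24c, Sec24d, Sar1a and Sar1b), 9 of them have a row among the 20645 genes of the expression table, and all 9 were among the 12958 genes tested. Sar1a has no row of that name and was not analysed here. The libraries came from INS-1E cells, a rat insulinoma line that secretes insulin, in 3 groups of 3 replicates. The BSA group was the control and received fatty acid-free BSA, the PA group received palmitic acid, a saturated fatty acid, at 0.5 mM, and the PA + C3G group received the same dose of palmitic acid together with cyanidin-3-O-glucoside, an anthocyanin, at 50 µM, each for 24 h. The doses are those of the study's methods and the times those of the sample labels. The study's methods call its experiments biological triplicates. All replicates come from 1 tumour-derived cell line, and the labels give only a replicate number, so the p-values measure the spread between these samples of 1 line.

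The study asked whether C3G protects beta cells against palmitic acid, and by which mechanism. RNA-seq was its screen, followed by qPCR, Western blots and knockdown of the ER stress protein CHOP. Here, the question was which parts of the COPII coat were expressed differently with PA and whether C3G moved them. The estimated counts of a library added up to 45559993 at the lowest and 66730721 at the highest. Changes are given as log2 fold changes of these counts after TMM scaling, with the standard error (SE) and with p-values adjusted over all 12958 genes by edgeR's quasi-likelihood test. Levels are given in FPKM, which divides by gene length so that genes can be set beside each other. Whether libraries of different groups overlapped was read from FPKM and not from the TMM-scaled counts of the tests. How many of all tested genes had groups without overlap was not counted, so separation of a coat gene's libraries has no such share beside it. A gene was called at an adjusted p-value under 0.05. At this threshold PA versus BSA called 51.0% of all tested genes, 25.8% higher and 25.2% lower, so that a call by itself was common in this comparison. PA + C3G versus PA called 21.2% (11.1% higher and 10.2% lower) and PA + C3G versus BSA 36.9% (19.0% higher and 17.9% lower). All 8 of the beta cell markers looked up (Ins1, Ins2, Iapp, Pdx1, Nkx6-1, Mafa, Slc2a2 and Chga) were above 1 FPKM in every library. Their summed level ran from 48911 to 49627 FPKM with BSA, from 22086 to 22600 with PA and from 46476 to 52089 with PA + C3G, and Ins1 and Ins2 made up most of it. Of the 8, 7 were lower in PA versus BSA (median log2 fold change −0.72), with Nkx6-1 not called, and all 8 were higher in PA + C3G versus PA (median 0.63). In PA + C3G versus BSA, 3 of the 8 were higher (Ins1, Nkx6-1 and Chga) and 2 lower (median 0.11). The lower ones were Ins2, at −0.91, and Slc2a2, at −1.51 (edgeR, adjusted p = 6.86e-05 and 7.41e-08). The similar sums with BSA and PA + C3G thus do not hold for each marker. Gcg, the glucagon gene and with Ghrl one of 2 other islet hormone genes in the table, was lower with PA, at 3.57 ± 2.34 FPKM (SD, n = 3), than with BSA, at 20.5 ± 11.5 (edgeR, adjusted p = 0.0149) and had a log2 fold change of 1.93 (adjusted p = 0.0814) in PA + C3G versus PA. The Gcg call in PA versus BSA was lost without BSA replicate 1 (adjusted p = 0.0507) and without PA replicate 3 (adjusted p = 0.0503). Against PA, Gcg was called higher with a replicate block in the edgeR fit (1.88, adjusted p = 0.000143). The same held without PA + C3G replicate 2 (2.35, adjusted p = 0.0348). With that block it was also called lower in PA + C3G versus BSA (−0.67, adjusted p = 0.0033), in place of −0.57 (adjusted p = 0.552). The sum of Gcg and Ghrl ran from 9.55 to 31.9 FPKM with BSA, from 2.68 to 7.01 with PA and from 5.37 to 23.1 with PA + C3G. In each group this sum was highest in replicate 1 and lowest in replicate 2. The 4 markers of acinar, ductal and fibroblast cells with a row (Cpa1, Cela1, Krt19 and Col1a1) summed to at most 0.199 FPKM in any library. In bulk RNA a lower level per cell and fewer cells of a kind cannot be told apart, and the part of these marker genes in the results below was not tested.

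Coat assembly starts when Sar1, a small GTPase, binds GTP and inserts into the ER membrane. Sar1 recruits the inner coat, a pair of Sec23 and Sec24. Sec23 activates the GTPase of Sar1, and Sec24 holds the sorting signals of cargo proteins. The outer coat, made of Sec13 and Sec31, then polymerizes into a cage that bends the membrane. Mammals carry several paralogs of most subunits, and cells that secrete in bulk, such as beta cells, rely on this step for proinsulin.

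Of the 9 genes, PA versus BSA called 4 higher and 1 lower, beside 25.8% higher and 25.2% lower of all tested genes. Sec23b, Sec31a, Sec24c and Sec23a rose and Sec13 fell. The median log2 fold change over the 9 genes was 0.22, beside a median near 0 (0.0030) over all genes tested. This median is the value of Sec24a, which was not called, and the 9 genes ran from −0.14 to 1.13. PA + C3G versus PA called 3 lower (Sec23b, Sec31a and Sec24c) and 2 higher (Sar1b and Sec13), beside 10.2% and 11.1% of all genes. The median was −0.22, beside −0.00073 for all genes. The 3 lower genes were all still above BSA with PA + C3G. The 2 comparisons share the PA libraries. PA + C3G versus BSA called 4 higher (Sec23b, Sec24c, Sec31a and Sar1b) and none lower, beside 19.0% and 17.9% of all genes. The median was 0.19, beside 0.0067 for all genes. None of the 9 was lower there at an unadjusted p-value under 0.05 in the edgeR fit, and DESeq2 and limma likewise called none lower. Scaling changed the balance of calls. When libraries were brought to equal summed FPKM (TPM scaling), PA + C3G versus PA called 775 of all genes higher and 2525 lower in place of 1436 and 1316, and none of the coat genes higher and 4 lower. For PA + C3G versus BSA it called 1891 higher and 3038 lower in place of 2462 and 2321, and 3 coat genes higher. The plot of FPKM by library shows the 9 genes side by side.

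**Figure D1:**
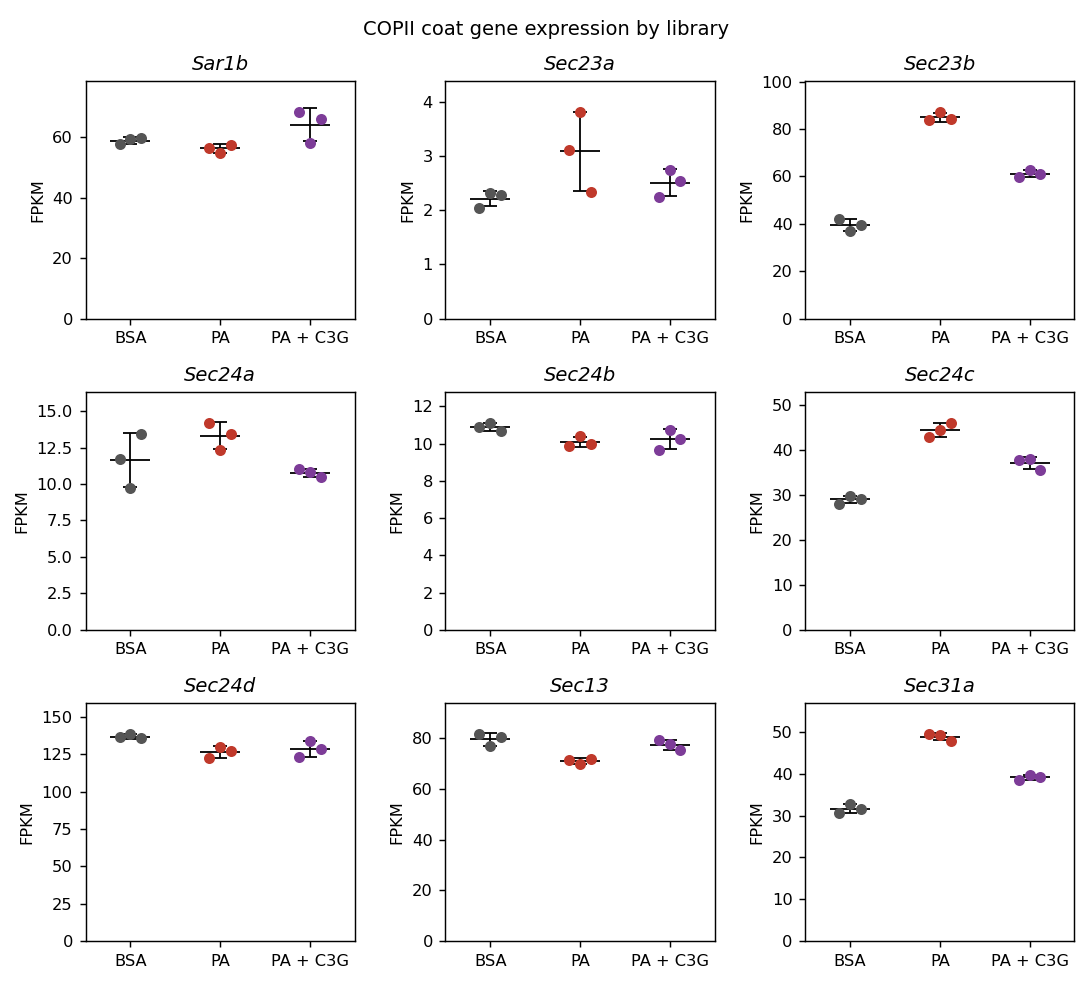
Expression of the 9 COPII coat genes in FPKM (vertical axes start at 0) in the BSA, PA and PA + C3G groups; points are the 3 libraries of a group and bars the mean ± SD. Sec23b, Sec24c and Sec31a had their 3 groups fully apart, with PA highest and PA + C3G between, whereas Sec24b and Sec24d moved little. How many of all tested genes had groups apart was not counted.

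The inner coat gene Sec23b showed the largest change of the 9. Sec23b (ENSRNOG00000008411, chromosome 3 from 138715570 to 138757111, plus strand, in the coordinates of the authors' table, whose genome build is not given in the sources used here) was at 42.0, 37.1 and 39.7 FPKM in the BSA libraries, at 83.7, 87.2 and 84.1 with PA and at 59.9, 62.8 and 61.0 with PA + C3G. No library of one group reached into the range of another. The log2 fold change was 1.13 (SE 0.05) in PA versus BSA, a fold of 2.18 (edgeR, adjusted p = 1.16e-07), which ranked it 115 by p-value among all tested genes. It was the only coat gene to pass the study's criterion of a fold change above 2 at an unadjusted p-value under 0.05, which 7.56% of all tested genes passed in PA versus BSA, 1.13% in PA + C3G versus PA and 4.63% in PA + C3G versus BSA. With C3G added, Sec23b fell by 0.44 (SE 0.05) on the log2 scale relative to PA (adjusted p = 0.000421) and remained 1.61-fold above BSA (log2 0.69, SE 0.05, adjusted p = 4.50e-06). Expressed as a multiple of the mean BSA level, it stood at 2.15 ± 0.0483 (SD, n = 3) with PA and 1.55 ± 0.0366 with PA + C3G.

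Its paralog Sec23a (ENSRNOG00000004657, chromosome 6 from 80060916 to 80107236, minus strand) was expressed far lower. It was at 2.05, 2.32 and 2.28 FPKM with BSA, at 3.10, 3.81 and 2.34 with PA and at 2.24, 2.73 and 2.55 with PA + C3G. The PA libraries lay above all BSA libraries, though PA replicate 3 did so by a narrow margin. The log2 fold change in PA versus BSA was 0.50 (SE 0.17, adjusted p = 0.0312). This call was lost when any 1 of BSA replicates 1, 2 and 3 or PA replicates 1 and 2 was left out, with 0.32 (adjusted p = 0.119) without PA replicate 2, and also with limma. The change of −0.26 (SE 0.17) in PA + C3G versus PA was not called (adjusted p = 0.308).

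The ratio of these paralogs of 1 subunit was also taken within each library, where, as for any pair of genes, it does not depend on how libraries are scaled. The ratio of Sec23a to Sec23b was 0.0487, 0.0623 and 0.0575 with BSA, 0.0370, 0.0437 and 0.0279 with PA and 0.0373, 0.0436 and 0.0417 with PA + C3G. The PA and PA + C3G libraries were all below the BSA libraries. The mean log2 ratio was lower by 0.65 in PA than in BSA (pooled SD 0.27, two-sided exact permutation test, p = 0.1, the smallest that 3 libraries against 3 allow), and 15 such tests of ratios and sums gave an adjusted p-value of 0.15 at best. Reads of such similar paralogs may have been divided between them by the authors' counting, which was not tested.

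Upstream sequence is shown for these paralogs because they differ in letters known for ER stress. The stretches are from RefSeq promoter windows of build GRCr8, which cover 250 bases before to 50 after a transcript start and were found for 7 of the 9 genes, all but Sec24c and Sec24d. Only bases before the start are printed, 5′ to 3′ on the strand of the gene. Capitals mark TGACGTGG, the unfolded protein response element (UPRE), in Sec23a, and CCAAT boxes on either strand in Sec23b.
Sec23a, chr6:82440905-82441054, minus strand: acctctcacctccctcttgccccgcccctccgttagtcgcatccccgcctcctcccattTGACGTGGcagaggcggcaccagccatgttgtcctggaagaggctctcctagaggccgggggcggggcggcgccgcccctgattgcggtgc
Sec23b, chr3:152392533-152392682, plus strand: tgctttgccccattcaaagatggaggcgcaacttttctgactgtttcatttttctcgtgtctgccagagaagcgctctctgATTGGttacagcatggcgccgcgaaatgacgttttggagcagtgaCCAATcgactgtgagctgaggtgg

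Searched on both strands, the UPRE was found in 1 of the 7 windows, that of Sec23a, and in 0.595% of 33465 RefSeq windows. It starts 91 bases before the transcript start. The window of Sec23b does not hold it. The CCAAT box, searched after the sequences were seen, occurs in 37.5% of windows. None of the 7 windows held the ER stress response element ERSE (CCAAT and, after 9 further bases, CCACG), which 0.0657% of windows hold. The 7 windows likewise lacked ERSE-II (ATTGG, 1 base, CCACG; 0.0508% of windows) and the cyclic AMP response element (1.83%). Such matches describe letters in a window and not sites in use.

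The Sec24 genes encode the cargo-binding member of the inner coat, and Sec24d was the most abundant COPII transcript. Sec24d (ENSRNOG00000014872, chromosome 2 from 227455722 to 227562319, plus strand) was at 136.5, 138.3 and 135.6 FPKM with BSA, at 122.3, 130.1 and 126.8 with PA and at 123.3, 133.6 and 128.6 with PA + C3G. Its PA libraries were all below the BSA libraries, but the log2 fold change of −0.09 (SE 0.04) was not called (adjusted p = 0.0864). It was −0.11 and past the threshold with limma on log2(FPKM + 1) (adjusted p = 0.0348). Between PA + C3G and PA it was 0.06 (SE 0.04, adjusted p = 0.318).

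Sec24c (ENSRNOG00000009042, chromosome 15 from 4035196 to 4057157, minus strand) was at 28.1, 29.8 and 29.1 FPKM with BSA, at 42.9, 44.6 and 46.0 with PA and at 37.7, 38.1 and 35.6 with PA + C3G. The 3 groups did not overlap. Sec24c rose with PA by 0.64 (SE 0.04) on the log2 scale (adjusted p = 1.82e-06), fell by 0.22 (SE 0.04) with C3G relative to PA (adjusted p = 0.00656) and stayed 1.34-fold above BSA (adjusted p = 5.63e-05).

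Sec24a and Sec24b were expressed about an order of magnitude lower than Sec24d. Sec24a (ENSRNOG00000004563, chromosome 10 from 37139806 to 37215899, minus strand) was at 11.7, 9.73 and 13.4 FPKM with BSA, at 14.2, 12.3 and 13.5 with PA and at 11.0, 10.8 and 10.5 with PA + C3G. The BSA libraries of Sec24a were the most scattered of the 3 groups and overlapped both others. Its log2 fold change was 0.22 (SE 0.10, adjusted p = 0.0937) in PA versus BSA and −0.27 (SE 0.10, adjusted p = 0.0880) in PA + C3G versus PA. Neither was called, although the PA + C3G libraries all lay below the PA libraries. The latter passed the threshold under TPM scaling (−0.36, adjusted p = 0.0319) and in 4 other alternatives, and the former did with DESeq2 (adjusted p = 0.0463) and without BSA replicate 3 (0.33, adjusted p = 0.0138). Sec24b (ENSRNOG00000023373, chromosome 2 from 230287296 to 230356919, minus strand) was at 10.9, 11.1 and 10.7 FPKM with BSA, at 9.89, 10.4 and 9.99 with PA and at 9.67, 10.7 and 10.3 with PA + C3G. It was called in no comparison, with log2 fold changes of −0.08 (SE 0.05, adjusted p = 0.172) in PA versus BSA and 0.06 (SE 0.05, adjusted p = 0.464) in PA + C3G versus PA.

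Sec24b and Sec24d, which lie on the same chromosome, followed each other across the 9 libraries, with a Pearson r of 0.965 of their log2 normalized counts. In each group both were highest in replicate 2. The libraries with the same number share nothing that the labels name.

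Added up, the Sec24 transcripts hardly moved. The summed level was 187.2, 189.0 and 188.8 FPKM with BSA, 189.3, 197.4 and 196.3 with PA and 181.7, 193.3 and 185.0 with PA + C3G. The PA libraries were all above the BSA libraries, by a mean of 0.04 on the log2 scale (pooled SD 0.02, exact permutation p = 0.1). Within this sum the composition differed. Sec24d made up 72.6% ± 0.722 (SD, n = 3) with BSA, 65.0% ± 0.742 with PA and 68.8% ± 0.880 with PA + C3G. Sec24c made up 15.4% ± 0.396 (SD, n = 3), 22.9% ± 0.461 and 19.9% ± 0.767. The shares of Sec24a, at 6.18%, 6.87% and 5.77%, and of Sec24b, at 5.78%, 5.19% and 5.48%, stayed small.

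**Figure D2:**
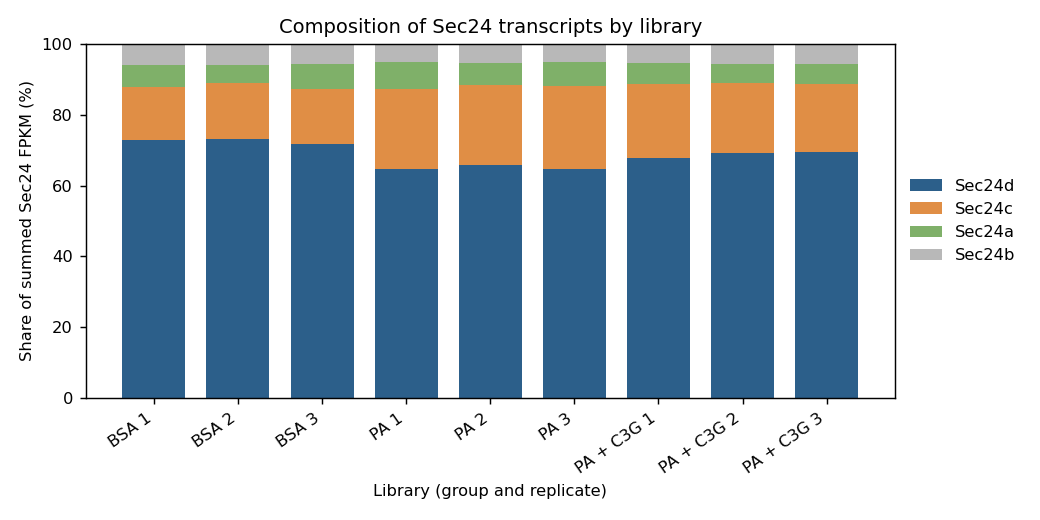
Share of each Sec24 gene in the summed Sec24 FPKM (vertical axis, percent) for each of the 9 libraries. Sec24c took about 15.4% with BSA, 22.9% with PA and 19.9% with PA + C3G, while Sec24d fell from 72.6% to 65.0% with PA and stood at 68.8% with PA + C3G.

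The ratio of Sec24c to Sec24d was 0.206, 0.216 and 0.215 with BSA, 0.351, 0.343 and 0.363 with PA and 0.306, 0.286 and 0.277 with PA + C3G. The 3 groups were apart, and each pair of groups gave the smallest p-value possible (two-sided exact permutation test, p = 0.1, adjusted p = 0.15). In fold terms the ratio with PA was 1.66 times that with BSA, and with PA + C3G 0.821 times that with PA. The log2 ratio of Sec24a to Sec24b was higher by 0.32 in PA than in BSA and their libraries overlapped (exact permutation p = 0.2). The same log2 ratio was at a difference of −0.32 in PA + C3G versus PA, where the libraries did not overlap (exact permutation p = 0.1).

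The outer coat showed opposite movements of its partners. Sec31a (ENSRNOG00000002251, chromosome 14 from 10854682 to 10909612, plus strand) encodes the rod that forms the edges of the cage. It was at 30.6, 32.8 and 31.7 FPKM with BSA, at 49.5, 49.3 and 47.9 with PA and at 38.6, 39.8 and 39.2 with PA + C3G, with no overlap between groups. Its log2 fold change was 0.65 (SE 0.04, adjusted p = 6.28e-07) in PA versus BSA, −0.28 (SE 0.04, adjusted p = 0.00105) in PA + C3G versus PA and 0.37 (SE 0.04, adjusted p = 4.80e-05) in PA + C3G versus BSA.

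Sec13 (ENSRNOG00000010628, chromosome 4 from 145686193 to 145699577, minus strand), which binds Sec31 in the cage and also serves in the nuclear pore and in the GATOR2 complex of nutrient sensing, was at 81.6, 76.8 and 80.4 FPKM with BSA, at 71.4, 69.9 and 72.0 with PA and at 79.4, 77.8 and 75.4 with PA + C3G. The PA libraries were the lowest of the 3 groups without overlap. It fell by 0.14 (SE 0.04) on the log2 scale with PA (adjusted p = 0.0135) and was higher by 0.16 (SE 0.04) with PA + C3G than with PA (adjusted p = 0.0166). Both small differences depend on the scaling. Under TPM scaling they were −0.11 (adjusted p = 0.0519) and 0.07 (adjusted p = 0.234), and the latter call was also lost without PA replicate 2 (adjusted p = 0.0556) and without PA + C3G replicate 1 (adjusted p = 0.0560). Between PA + C3G and BSA the difference was 0.02 (SE 0.04, adjusted p = 0.680).

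The ratio of Sec31a to Sec13, chosen after their values were seen, was 0.375, 0.427 and 0.394 with BSA, 0.694, 0.706 and 0.665 with PA and 0.487, 0.512 and 0.521 with PA + C3G. No 2 groups overlapped. The ratio was 1.73 times that of BSA with PA and 1.27 times with PA + C3G (exact permutation p = 0.1 for each, the smallest possible). The plot of ratios shows these libraries beside those of the paralogs.

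**Figure D3:**
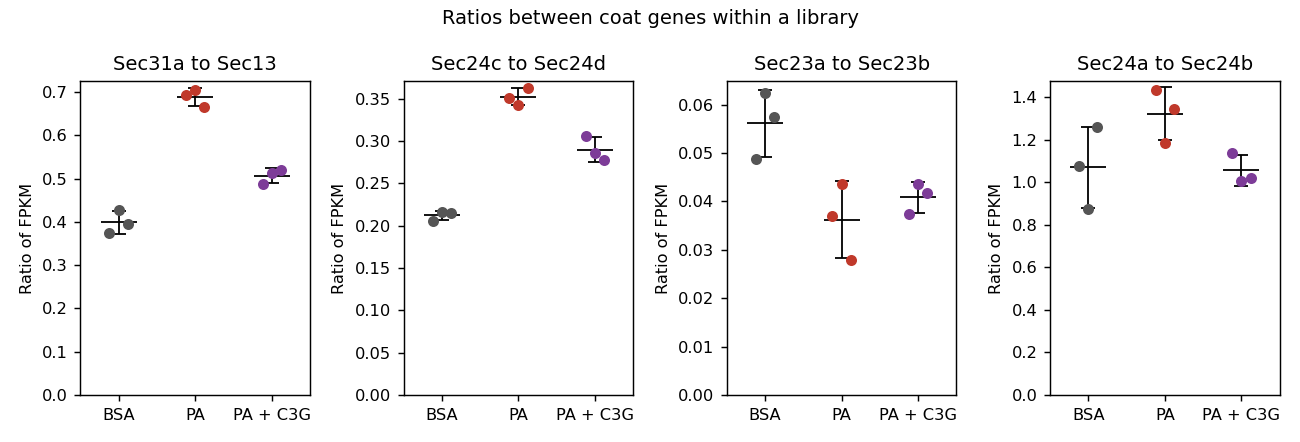
Ratios of FPKM within a library (vertical axes start at 0) for Sec31a to Sec13, Sec24c to Sec24d, Sec23a to Sec23b and Sec24a to Sec24b; points are libraries and bars the mean ± SD of 3. The ratios of Sec31a to Sec13 and of Sec24c to Sec24d separated all groups, with PA highest.

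The stretch before the Sec31a start is shown for its matches to CCACG, the letters that ERSE and ERSE-II share, in capitals as CCACG or, for the other strand, CGTGG. It is the last 100 bases of the RefSeq window before the transcript start.
Sec31a, chr14:9518637-9518736, plus strand: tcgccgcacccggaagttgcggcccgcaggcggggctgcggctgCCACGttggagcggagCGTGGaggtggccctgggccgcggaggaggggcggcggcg

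The whole window of Sec31a held 3 matches to CCACG, as did that of Sec24b, which was called in no comparison. Those of Sec13, Sec23a and Sec23b held 1 each and those of Sec24a and Sar1b none. The match in Sec23a lies within its UPRE. Of all windows, 31.6% hold this short motif.

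Sar1b (ENSRNOG00000004820, chromosome 10 from 37215937 to 37245658, plus strand) was at 57.6, 59.4 and 59.6 FPKM with BSA, at 56.5, 54.9 and 57.5 with PA and at 68.3, 58.2 and 66.1 with PA + C3G. In FPKM each PA library was below each BSA library by a small margin. The log2 fold change of the TMM-scaled counts, −0.04 (SE 0.06), was not called (adjusted p = 0.599). Against PA the PA + C3G group was higher by 0.23 (SE 0.06, adjusted p = 0.0219) and against BSA by 0.19 (SE 0.06, adjusted p = 0.0302), where PA + C3G replicate 2 lay within the BSA range. Both calls depended on the settings. Under TPM scaling the log2 fold changes were 0.14 (adjusted p = 0.101) and 0.13 (adjusted p = 0.102). The former was also lost with limma, without any of the 3 PA libraries and without PA + C3G replicate 1 or 3, at adjusted p-values up to 0.0753. The latter was also lost with limma (adjusted p = 0.128 and 0.130), with the compared groups only (adjusted p = 0.0646), without any of the 3 BSA libraries, without PA replicate 1 and without PA + C3G replicate 1 or 3 (adjusted p-values up to 0.120).

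Sar1b and Sec24a are neighbours that point away from each other. In the authors' table their starts lie 38 bp apart, and no other coat gene overlaps or adjoins another. The 61 bases that separate the RefSeq transcript starts of both genes in build GRCr8 are printed because they lie before both starts. No capitals are used, as none of the motifs searched occurs in them.
Sec24a and Sar1b, chr10:36525304-36525364, plus strand: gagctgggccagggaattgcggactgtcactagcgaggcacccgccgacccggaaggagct

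With this stretch in common, both genes had different patterns. Across the 9 libraries the Pearson r of their log2 normalized counts was −0.413. Sec24a was at −0.27 in PA + C3G versus PA, where it was not called, and Sar1b at 0.23. The libraries were made with a strand-marking protocol, but whether counting used the strand is not given in the sources used here.

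**Figure D4:**
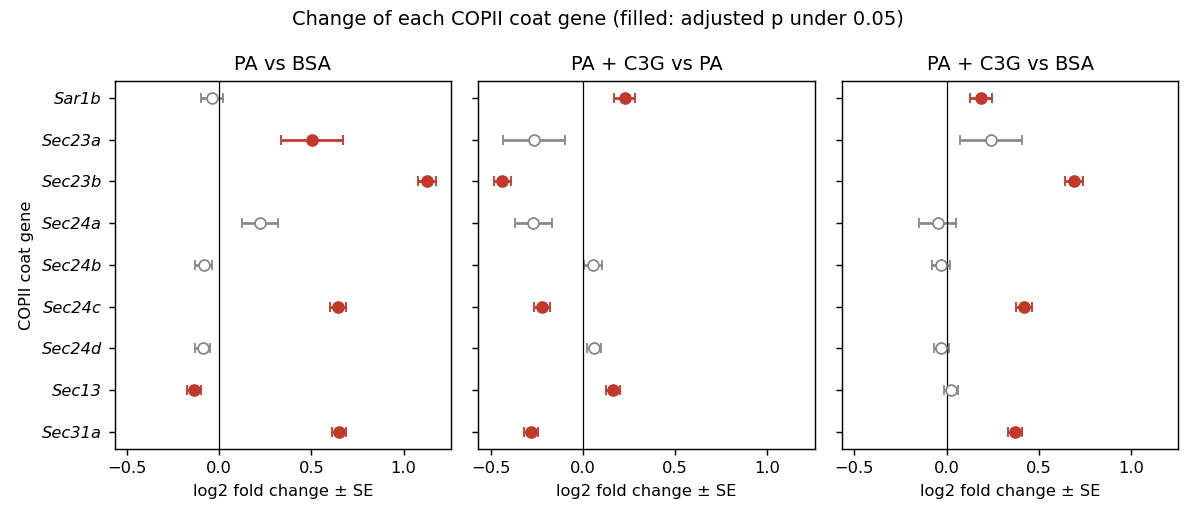
Log2 fold change ± SE of each COPII coat gene (horizontal axis) in the 3 comparisons, with filled points where edgeR's quasi-likelihood test called the gene. Sec23b, Sec31a and Sec24c are right of 0 in PA versus BSA, left of 0 in PA + C3G versus PA and right of 0 in PA + C3G versus BSA.

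The order of levels within the coat also shifted. With BSA it ran Sec24d, Sec13, Sar1b, Sec23b, Sec31a, Sec24c, Sec24a, Sec24b and Sec23a from high to low, and Sec24a and Sec24b were the only neighbours whose libraries overlapped. With PA, Sec23b moved above Sec13 and Sar1b, and no neighbours overlapped. With PA + C3G, Sec23b and Sar1b overlapped, as did Sec24a and Sec24b.

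Sec23b, Sec31a and Sec24c resembled each other most. Their pairwise Pearson r across the 9 libraries lay at 0.982 for Sec31a with Sec23b, 0.983 for Sec31a with Sec24c and 0.977 for Sec23b with Sec24c, values that include the steps between the 3 groups. Outside the coat, the gene closest to Sec23b was Arcn1, a subunit of the COPI coat (r = 0.998 over 9 libraries). Washc5 was closest to Sec31a (r = 0.995) and Dapk3 to Sec24c (r = 0.995), and each of the 3 coat genes had between 564 and 581 tested genes at an r above 0.95. Each other coat gene had few genes that close: 14 for Sec13, 10 for Sec24d, 2 each for Sec24b and Sar1b, 1 for Sec23a and 0 for Sec24a. Jagn1 was the nearest to Sar1b (r = 0.974). The nearest to Sec13 was Mpp2 (r = 0.983), to Sec24d En1 (r = 0.981), to Sec24b AABR07029863 (r = 0.971), to Sec23a Zfp652 (r = 0.95) and to Sec24a Xkr4 (r = 0.95).

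The genes that act around the coat were looked at as lists. For their counts, the shares of all tested genes were 25.8% higher and 25.2% lower in PA versus BSA. They were 11.1% and 10.2% in PA + C3G versus PA and 19.0% and 17.9% in PA + C3G versus BSA. Of 10 tested genes listed as factors that place and time the coat at ER exit sites, 6 were higher and 2 lower with PA. The 6 include Sec31b, a paralog of the outer coat gene Sec31a and not such a factor. It was low, at 1.17 ± 0.123 FPKM (SD, n = 3) with BSA and 1.63 ± 0.144 with PA (log2 0.51, SE 0.17, edgeR, adjusted p = 0.0302). Sec16a, the scaffold of ER exit sites, rose from 26.3 ± 0.912 FPKM (SD, n = 3) to 45.6 ± 1.51 (log2 0.82, SE 0.05, adjusted p = 1.04e-06) and fell by 0.36 (SE 0.05) with C3G relative to PA (adjusted p = 0.00131). Mia2, which links bulky cargo to the coat, followed with 0.62 and −0.35 (adjusted p = 1.67e-05 and 0.00327). Sec23ip, which binds Sec23, had 0.46 and −0.14 (adjusted p = 5.61e-06 and 0.0231), with the latter call lost without PA replicate 2 or 3 or PA + C3G replicate 2 or 3. Preb, the exchange factor that loads Sar1 with GTP, rose by 0.31 with PA (SE 0.06, adjusted p = 0.00125) and was at −0.03 in PA + C3G versus PA (adjusted p = 0.766). Cul3, the ligase that with Klhl12 ubiquitinates Sec31, moved the other way, with −0.53 and 0.26 (adjusted p = 4.04e-06 and 0.00219). Klhl12 did not follow Cul3 and was at 0.17 and −0.02 (adjusted p = 0.0308 and 0.870). Sec16b, the short Sec16, had −0.61 and 0.81 (adjusted p = 0.0263 and 0.0171), with both calls lost without PA replicate 1 or 3 and the former also without BSA replicate 1 or 2. With limma 4 of this list were higher with PA in place of 6.

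Of 19 tested cargo receptors that ride in COPII vesicles, 13 were higher with PA and 1 lower, beside 25.8% and 25.2% of all tested genes. The median log2 fold change was 0.34. Tmed3 and Tmed9, p24 family members, rose by 1.47 (SE 0.04, adjusted p = 1.13e-08) and 1.19 (SE 0.04, adjusted p = 2.13e-08). Lman1 and its partner Mcfd2, which carry glycoproteins such as clotting factors, rose by 1.14 and 0.81, and Surf4, a receptor for soluble cargo, by 0.73. Smaller rises were those of Lman2l (0.57), Tmed2 (0.54) and Ergic3 (0.34). Ergic1 was the one that fell, by 0.61 (SE 0.08, adjusted p = 0.000216). With C3G relative to PA, 4 of the 19 were lower and 2 higher with a median of −0.05, and 13 were not called. Tmed9 fell most, by 0.34 (adjusted p = 0.000342), and Lman2l by 0.24 (adjusted p = 0.0118) and Tmed2 by 0.14 (adjusted p = 0.0164), the last lost without replicate 2 of PA or of PA + C3G. Tmed3 fell by 0.14 (adjusted p = 0.0281), a call lost without PA replicate 1 or 3 or PA + C3G replicate 2 or 3. Ergic3 rose by 0.30 (adjusted p = 0.00475) and Ergic1 by 0.32 (adjusted p = 0.0246). The call of Ergic1 was lost under TPM scaling (adjusted p = 0.0594), with the compared groups only and without replicate 1 or 3 of PA or of PA + C3G. Lman1 was at −0.15 (SE 0.06, adjusted p = 0.103), and called under TPM scaling (adjusted p = 0.0183). Lman2 was at 0.00023 (SE 0.04, adjusted p = 0.998). TPM scaling turned the 4 lower and 2 higher into 8 and 1. Against BSA, 13 receptors were higher in the PA + C3G group.

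Vesicle tethers and SNAREs, which dock and fuse the vesicles at the Golgi, had 9 of 18 higher and 3 lower with PA. Of all tested genes 25.8% were higher and 25.2% lower. Bet1 rose by 1.13 (SE 0.12, adjusted p = 2.90e-05), its SNARE partner Stx5 by 0.86 (SE 0.05, adjusted p = 6.14e-07) and the tether Uso1 by 0.63 (SE 0.04, adjusted p = 1.01e-06). Gosr2 and Scfd1, a SNARE and a SNARE regulator, rose by 0.53 and 0.44, and Rab1b, a GTPase that recruits tethers, and Trappc2, of the TRAPP tether, fell by 0.26 and 0.65. In PA + C3G versus PA Rab1b and Trappc2 were the 2 that rose (0.22 and 0.49, adjusted p = 0.0202 and 0.0198), each call lost without PA replicate 1 or PA + C3G replicate 3 among others. Gosr2 and Scfd1 were not called (adjusted p = 0.108 and 0.0888). Both were called lower under TPM scaling (adjusted p = 0.0159 and 0.016) and with limma on log2(FPKM + 1) (adjusted p = 0.0468 and 0.0436), among others. In the same comparison Bet1, Stx5 and Uso1 fell by 0.45, 0.25 and 0.20, with the call of Bet1 lost without PA replicate 1 or 3 (adjusted p = 0.0632 and 0.0556), and 4 of the list were lower and 2 higher. The count became 7 lower and 1 higher under TPM scaling.

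The COPI coat returns escaped ER proteins from the Golgi. Of 15 tested genes of this coat, its regulators and retrieval receptors, 12 were higher with PA and 1 lower. Of all tested genes 25.8% were higher and 25.2% lower. The lower gene of the list was the coat subunit Copg2 (−0.22, adjusted p = 0.0081). The median of the list was 0.51. The subunit Cope and the regulator Arfgap2 were not called. Copz2 rose by 1.80 (SE 0.16, adjusted p = 1.38e-05), Arfgap3 by 0.95, Arcn1 by 0.70, the subunits Copa and Copz1 by 0.55 and 0.31 and the KDEL receptors Kdelr3, Kdelr2 and Kdelr1 by 1.32, 0.63 and 0.51. With C3G 8 were lower than with PA and none higher, with a median of −0.16, and none of the 15 was higher at an unadjusted p-value under 0.05 in the edgeR fit. DESeq2 and limma called none higher either. The count of lower genes was 4 or 5 without any 1 of the PA libraries or without PA + C3G replicate 3. Arcn1 fell by 0.27 (SE 0.04, adjusted p = 0.00113), Copa by 0.20 (adjusted p = 0.00372) and Copz1 by 0.17 (adjusted p = 0.0171), the last lost without replicate 3 of PA or of PA + C3G. Against BSA 10 were still higher.

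Sec13 has partners outside the coat, in the Nup107 complex of the nuclear pore and in GATOR2, and these were listed to set its small fall beside theirs. Of 11 tested, 7 were lower and 3 higher with PA, beside 25.2% and 25.8% of all tested genes. All 7 that fell belong to the nuclear pore, among them Nup160 (−0.64), Ahctf1 (−0.33), Nup107, which fell by 1.17 (SE 0.07, adjusted p = 1.14e-06), and Nup85, which fell by 1.02 (SE 0.06, adjusted p = 9.96e-07). Nup98 and the GATOR2 genes Wdr24 and Wdr59 rose, the latter by 0.67 and 0.47 (adjusted p = 0.000111 and 0.00323). Nup98 was at 0.10 (adjusted p = 0.0329), a call lost with limma, with no filter on low values and without any 1 of the BSA libraries, PA replicate 1 or 2 or PA + C3G replicate 3. Mios, also of GATOR2, was at 0.23 (adjusted p = 0.0518). In PA + C3G versus PA, 1 of the 11 was higher and 4 were lower. Nup107 rose by 0.36 (adjusted p = 0.00793). Nup98 fell by 0.16 (adjusted p = 0.00999), and the GATOR2 genes Wdr59, Mios and Wdr24 by 0.38, 0.31 and 0.27 (adjusted p = 0.0246, 0.0317 and 0.0458). Each of these GATOR2 calls was lost without PA replicate 1, PA replicate 3 or PA + C3G replicate 3, among others, at adjusted p-values from 0.0552 to 0.144. Nup85 was at 0.07 (adjusted p = 0.470).

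Transcription factors known to act on secretory pathway genes were all higher with PA, 7 of 7 tested, under every alternative run. Of all tested genes 25.8% were higher. Bhlha15 rose by 2.45 (SE 0.13, adjusted p = 4.50e-07), Creb3l2, known for its action on Sec23a in cartilage, by 1.69 (SE 0.08, adjusted p = 2.25e-07), Atf6 by 1.18 (SE 0.04, adjusted p = 4.72e-08), Creb3l1 by 0.64, Atf6b by 0.63, Xbp1 by 0.61 and Creb3 by 0.36. With C3G relative to PA, Atf6 fell by 0.61 (SE 0.04, adjusted p = 4.06e-05), Creb3l2 by 0.43, Bhlha15 by 0.43 and Atf6b by 0.26. The call of Bhlha15 (adjusted p = 0.0371) was lost without any 1 of the PA or PA + C3G libraries and without BSA replicate 3, at adjusted p-values up to 0.0951. Xbp1 was at 0.15 (SE 0.05, adjusted p = 0.0611) and passed the threshold with DESeq2 (adjusted p = 0.0315) and in 3 other alternatives. Creb3 was at −0.05 (adjusted p = 0.581) and Creb3l1 at −0.0011 (adjusted p = 0.993). Creb3l3 and Creb3l4 averaged under 1 FPKM and were not tested. These values describe mRNA and not the processing that activates several of these factors.

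**Figure D5:**
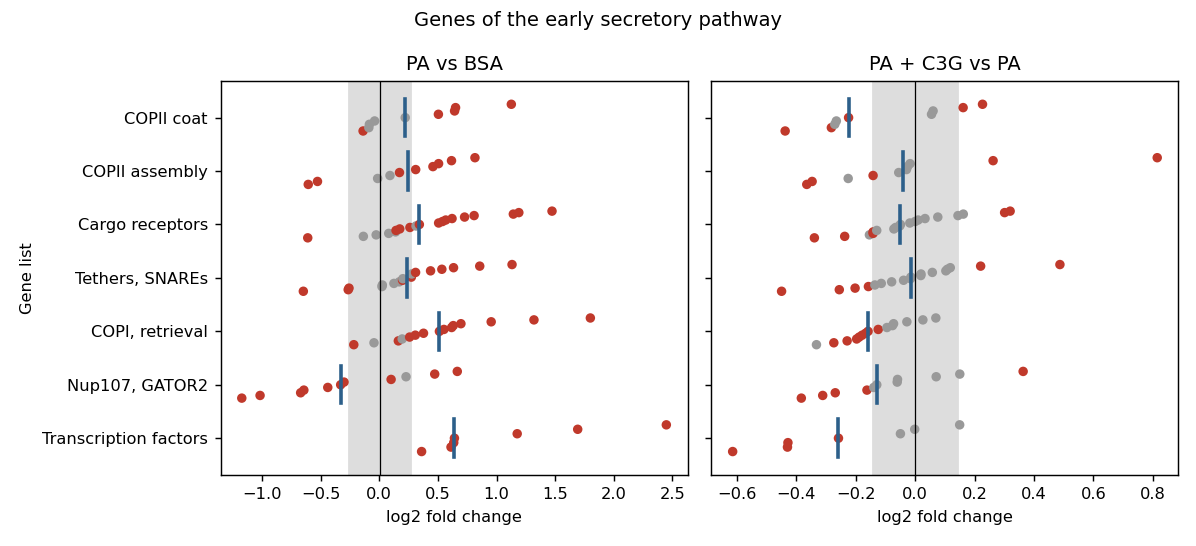
Log2 fold change (horizontal axes) of each tested gene of 7 lists in PA versus BSA and PA + C3G versus PA; red points have an adjusted p-value under 0.05, blue bars are list medians, the grey band holds the middle of all tested genes from the 25th to the 75th percentile and the black line their median. The median of the COPI list was 0.51 and that of the COPII coat 0.22 with PA.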

How the data were processed

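RNA-seq of 9 INS-1E libraries was used. The authors selected polyadenylated RNA, made dUTP strand-marked libraries and deposited 1 table for the whole series with estimated counts per gene (not normalized) and FPKM (scaled by the authors to gene length and mapped fragments). The submitters' processing notes name cutadapt 1.9, HISAT2 2.0.4 and StringTie 1.3.4d, with DESeq2 and edgeR. The genome build is not given in the sources used here, so gene positions are those of the table. All count columns were assigned to samples by name. Totals per library ran from 45559993 to 66730721. Low counts favour multiples of 4 (2.44 times as many values of 4 as the mean of those of 3 and 5), so dividing by 4 was tried.

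Genes whose FPKM averaged 1 or more were tested with edgeR 4.0.16 (R 4.3.3, TMM, quasi-likelihood test, all 9 libraries in 1 fit, Benjamini-Hochberg adjustment over 12958 genes). The procedure was also run on simulated counts in which few genes changed and every gene had the same spread. That setting differs from these data, where many genes were called, and cannot test the choice of scaling. Alternatives used DESeq2 1.42.0, limma 3.58.1 on log2(FPKM + 1) and log2(FPKM + 0.1), other scalings and filters, compared groups only, a replicate block and each library left out. The members and gene lists were chosen with earlier results of these data known. The ratio of Sec31a to Sec13 and the CCAAT box search were added after the values were seen. Named are all members, the 5 genes per list with the smallest p-value in PA versus BSA and in PA + C3G versus PA, all transcription factors and markers, and the gene most correlated with each member. Mcfd2, Lman2, Copz2, Copg2, Cope, Arfgap2, Kdelr3, Klhl12 and Sec31b were named outside this rule after their values were seen. Protein sequences were not used here. Listed names without a row of that name (Mia3, Stx5a, Copb2, Copg1, Seh1l, Nup96, Sst, Ppy, Prss1 and Col1a2) were not analysed under these names. Stx5 and Nup98 have rows and were tested.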

Additional observations from a re-analysis of the deposited data

How the results depend on the processing

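When 1 library at a time was left out, the count of genes called ran from 5852 to 6621 for PA versus BSA, from 1718 (without PA replicate 3) to 2838 for PA + C3G versus PA and from 3864 to 4684 for PA + C3G versus BSA. The count of COPII members called ran from 4 to 5, from 3 (without PA replicate 2 or PA + C3G replicate 1) to 6 and from 3 to 4. The median log2 fold change of the members ran from 0.0990 (without BSA replicate 2) to 0.328 (without BSA replicate 3), from −0.245 to −0.0796 (without PA replicate 2) and from 0.130 to 0.187. With a mean FPKM of at least 5, where Sec23a is not tested, that median was 0.0851, −0.0888 and 0.0950 for the 3 comparisons. Under TPM scaling it was −0.313 for PA + C3G versus PA, beside −0.0898 for all tested genes. For PA + C3G versus BSA it was 0.127, beside −0.0529. With limma on log2(FPKM + 0.1) the median of the members was −0.260 and 0.122 for these 2 comparisons, beside −0.0371 and −0.0537. Limma on log2(FPKM + 1) gave 0.120 for PA + C3G versus BSA, beside −0.0488. The median of all tested genes thus lay lower under these settings than in the main fit, where it was −0.00073 and 0.0067. What moved the medians of the members was not tested. Replicate numbers are shared by the groups. Deviations of same-numbered libraries had r from −0.0918 to 0.0796, and those of other pairs from −0.0722 to 0.0937. In PA + C3G versus PA the same-numbered pairs were at 0.0796, 0.0254 and 0.0585, and other pairs ran from −0.0722 to 0.0103. With a replicate block 6843, 3118 and 5058 genes were called, in place of 6614, 2752 and 4783. Of the members 6, 5 and 4 were called, Sec24d being the added member (−0.09, adjusted p = 0.0278). Sec23b, Sec31a and Sec24c kept their direction and their calls in all 3 comparisons under each of these settings. Of the member values under these settings, 471 kept direction and side of the threshold, 29 lost a call and 10 gained one, and none reversed a called direction. Libraries were too few for the ratio tests to pass an adjusted p-value of 0.05.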
